A study of Mus musculus with 6 samples.

Results

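Aminoacyl-tRNA synthetases, the enzymes that join each amino acid to its tRNA, were followed at the RNA level in eWAT, the white adipose tissue that lies along the epididymis. The set was a list of symbols looked up in the gene names of the deposited count table. All 39 were found among its 28529 genes and all 39 passed the filter on low counts. They comprised 20 cytosolic synthetases, 3 noncatalytic scaffold proteins of the multisynthetase complex and 16 mitochondrial synthetases, whose symbols end in 2 (*Aimp2* is a scaffold protein). The cytosolic and scaffold genes were set against the mitochondrial ones. RNA came from 3 wild-type and 3 *Maf1*-/- male mice of strain C57BL/6 (C57Bl6/J in the growth notes), aged 22 to 24 weeks, fed chow and fasted overnight before the fat was taken. The knockout was whole-body and made in embryonic stem cells, so that every tissue carried it. Each mouse gave 1 library, and these are named WT1 to WT3 for the wild type and KO1 to KO3 for the knockout by replicate. Values by library are given in that order throughout.

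MAF1 represses RNA polymerase III (Pol III), which makes the tRNAs of the cytosol. The synthetases are themselves made from mRNAs by RNA polymerase II, and they attach amino acids to those tRNAs in an ATP-dependent reaction that sets which amino acid each codon receives. Mitochondria translate their own small genome with their own tRNAs and need a further set of synthetases, which are encoded in the nucleus and imported. In mammals a group of the cytosolic enzymes is held together with the scaffold proteins in the multisynthetase complex.

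The libraries held 7207476 (KO2) to 15971900 (WT2) counts, and 16101 genes were tested. *Maf1* had 56.8, 66.7 and 66.4 CPM (read counts relative to the library total, scaled by TMM) in the wild type and 13.5, 11.6 and 22.1 CPM in the knockout, with a log2 fold change of −2.0 ± 0.28 (SE). The first principal component took 60.7% of the variance and set WT1 and KO1 apart from the other 4 libraries. Adipocyte markers summed to between 21066 and 33631 CPM in every library. Of the 10, *Lep* and *Adipoq* lay lower in every knockout library, at −1.48 and −0.48, where 3.37% of all genes lay lower. Log2 fold changes were below 0 for 6 of 10 adipocyte, 7 of 8 macrophage and 8 of 8 endothelial markers. The 19 epididymis and testis markers gave 18.8, 7443 and 4844 CPM in the wild type and 905, 9485 and 9070 CPM in the knockout. Smooth and skeletal muscle markers summed to 709, 478 and 687 CPM in the wild type and to 2143, 4706 and 532 CPM in the knockout. The part of these other tissues in the results was not tested. In bulk tissue, fewer cells of a type and less RNA per cell cannot be told apart.

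No synthetase or scaffold gene passed the test, and the mean levels of most were slightly higher in *Maf1*-/-, though not in every knockout library. Of the 39 genes, 33 had a log2 fold change above 0, against 51.1% of all genes tested, with a median of 0.15 against 0.01 over all genes. By library, 13, 20 and 18 of the 23 cytosolic and scaffold genes lay above their wild-type geometric mean in KO1 to KO3. In WT1 to WT3 the counts were 10, 12 and 13, so KO1 had no more than WT3. Of the 16 mitochondrial genes, 10, 9 and 13 lay above it in the knockout, against 6, 11 and 9 in the wild type. By edgeR's quasi-likelihood test with Benjamini-Hochberg adjustment, 0 of the 39 had an adjusted p below 0.05, and the percentage of all genes called was 0.0. The deleted gene, *Maf1*, was not called by that test either (unadjusted p = 0.00022, adjusted p = 0.9995). A missing call by that test therefore does not show an unchanged level. DESeq2 and edgeR's exact test did call *Maf1* (adjusted p = 1.3e-05 and 0.00047), and limma voom did not. DESeq2, edgeR's exact test and limma voom also called 0 of the 39. At an unadjusted p below 0.05 there was 1 gene that was higher, *Cars*, and none that was lower, where 0.963% of all genes were higher and 0.913% were lower at that level. The 3 knockout libraries lay above the 3 wild-type libraries for 4 genes, *Cars*, *Nars*, *Rars2* and *Hars2*, and below them for 0, where 2.9% of all genes lay above and 3.37% lay below. Scaled by library size alone, *Nars* overlapped and the other 3 did not, where 2.12% of all genes lay above.

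**Figure D1:**
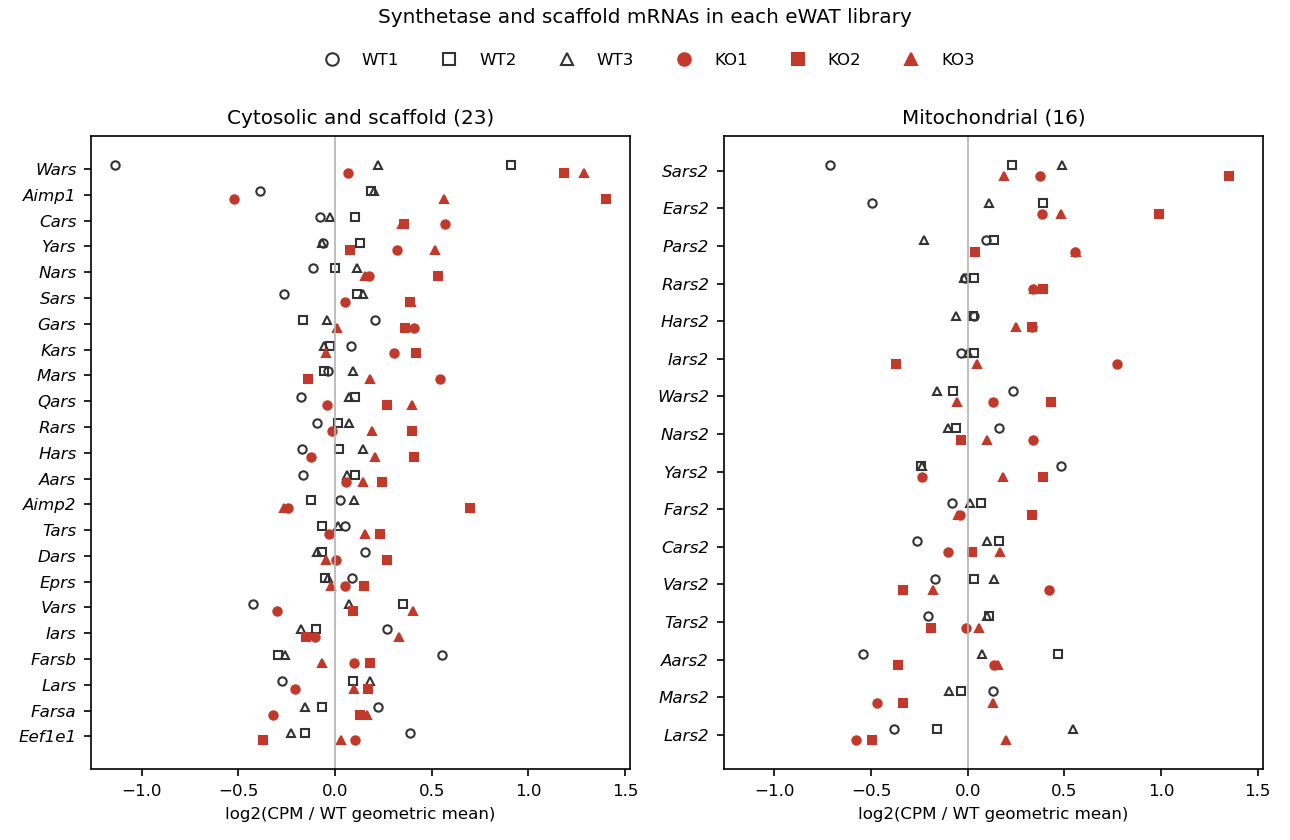
Level of each of the 39 mRNAs in the 6 libraries, as log2 of the CPM over the geometric mean of the 3 wild-type libraries (open black symbols, wild type; filled red symbols, *Maf1*-/-; circle, square and triangle are replicates 1, 2 and 3). *Cars*, *Nars*, *Rars2* and *Hars2* show no overlap of genotypes, whereas *Wars*, *Aimp1*, *Sars2* and *Iars2* are widely spread within a genotype.

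Among the cytosolic synthetases, 19 of 20 had log2 fold changes above 0, with a median of 0.19. *Cars*, which charges tRNA-Cys (ENSMUSG00000010755, minus strand of chr7:150743135-150785995, mm9), had 22.6, 25.6 and 23.4 CPM in the wild type and 35.4, 30.6 and 30.4 CPM in the knockout. Every knockout library exceeded every wild-type library, with means of 23.9 ± 1.54 and 32.1 ± 2.84 CPM (SD, n = 3 each). Its log2 fold change was 0.43 ± 0.17 (SE), with an unadjusted p of 0.041 and an adjusted p of 1.00 by edgeR's quasi-likelihood test. In a fit blocked by replicate number the unadjusted p was 0.058, and with any library left out the log2 fold change stayed between 0.35 and 0.48.

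*Nars*, the asparagine enzyme, had 88.0, 95.2 and 103 CPM in the wild-type libraries and 107, 138 and 106 CPM in the knockout libraries. The gap between WT3 and KO3 was small, and KO2 stood above the other 5, with a log2 fold change of 0.30 ± 0.18 (SE; unadjusted p = 0.144, edgeR's quasi-likelihood test). *Yars*, the tyrosine enzyme, had 28.0, 32.0 and 28.0 CPM in the wild type and 36.6, 30.8 and 41.8 CPM in the knockout. KO2 lay below WT2, so the genotypes overlapped, and the log2 fold change was 0.31 ± 0.18 (SE).

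*Sars*, the serine enzyme, had 77.3, 100.5 and 103 CPM in the wild type and 95.9, 121 and 122 CPM in the knockout. Its lowest knockout library, KO1, fell within the wild-type range (log2 fold change 0.27 ± 0.19, SE). *Qars*, the glutamine enzyme, had 64.7, 78.5 and 76.8 CPM in the wild type and 70.9, 88.1 and 96.4 CPM in the knockout, with the same library inside the wild-type range (0.22 ± 0.18). *Rars*, the arginine enzyme, had 35.4, 38.1 and 39.6 CPM against 37.2, 49.7 and 43.1 CPM, again with KO1 among the wild-type values (0.20 ± 0.17).

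*Gars* and *Kars* each give rise to both the cytosolic and the mitochondrial enzyme for their amino acids, glycine and lysine. *Gars* had 85.5, 65.9 and 71.8 CPM in the wild type and 98.3, 94.9 and 74.6 CPM in the knockout (log2 fold change 0.26 ± 0.19, SE). *Kars* had 75.1, 69.5 and 68.0 CPM in the wild type and 87.6, 94.7 and 68.6 CPM in the knockout (0.24 ± 0.18). In both genes KO1 and KO2 lay above every wild-type library and KO3 lay below WT1.

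The enzymes for the branched-chain and several other amino acids were closest to 0 in log2 fold change. *Lars* (leucine) was at 0.02, *Iars* (isoleucine) at 0.03 and *Vars* (valine) at 0.06, each with an SE of 0.19 to 0.27. *Farsa* and *Farsb*, the subunits of the phenylalanine enzyme, were at −0.002 and 0.02. *Eprs*, a single protein that charges both glutamate and proline, had the smallest spread over the 6 libraries, with 208 ± 11.3 CPM in the wild type and 217 ± 12.8 CPM in the knockout (SD, n = 3 each), at 0.06. *Mars* (methionine, 0.22), *Hars* (histidine, 0.17), *Aars* (alanine, 0.15), *Tars* (threonine, 0.12) and *Dars* (aspartate, 0.08) lay between.

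**Figure D2:**
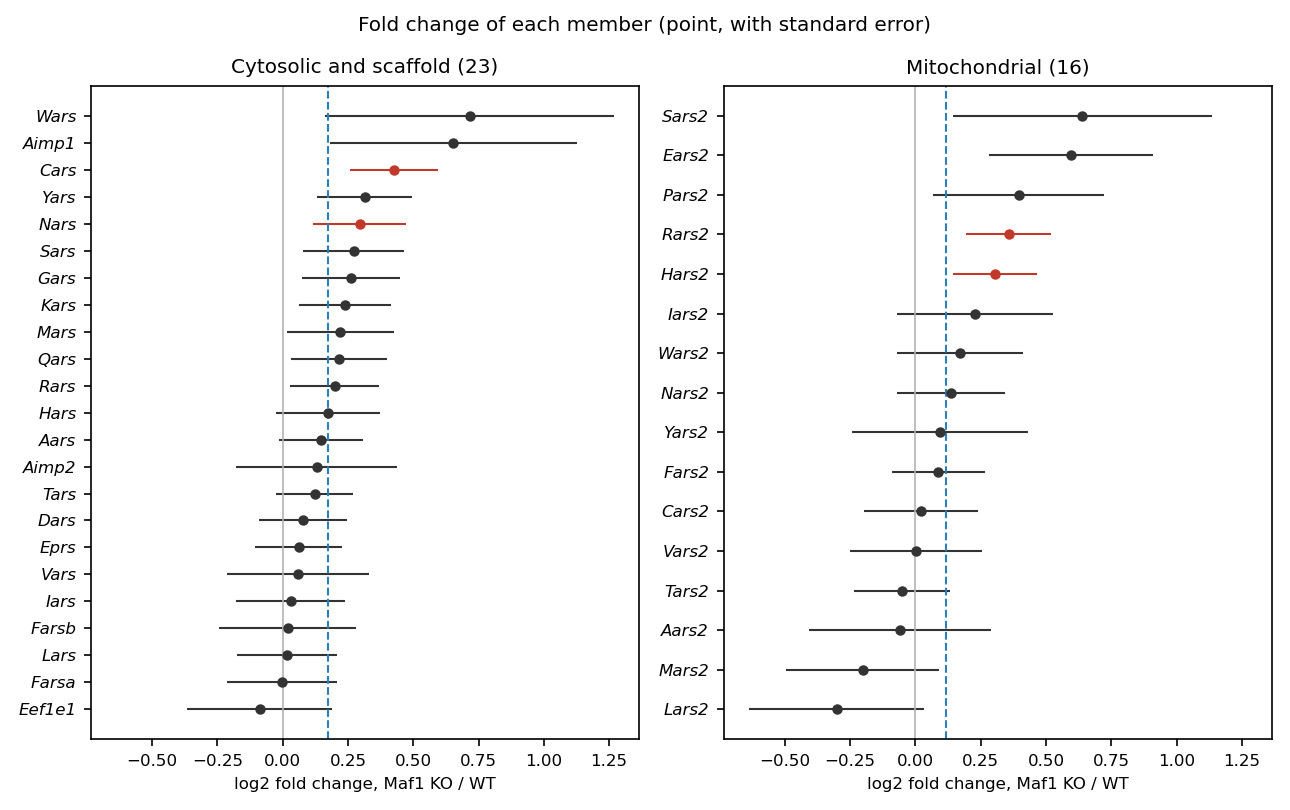
Log2 fold change of each gene, *Maf1*-/- over wild type, from edgeR, with a standard error derived from its F statistic. Red marks the 4 genes with no overlap of libraries, and the dashed line is the median of the panel. The medians are 0.17 for the cytosolic and scaffold genes and 0.12 for the mitochondrial genes, and most error bars reach or cross 0.

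*Wars*, the tryptophan enzyme, had the highest mRNA level per kilobase of exon of all 39 genes and the largest log2 fold change, 0.72 ± 0.55 (SE; unadjusted p = 0.239, edgeR's quasi-likelihood test). It had 64.9, 268 and 166 CPM in the wild type and 149, 324 and 348 CPM in the knockout. WT2 lay above KO1 and the 6 libraries spanned 5.36-fold, so the genotypes overlapped widely. Within each replicate number the knockout library was the higher one. In an edgeR quasi-likelihood fit blocked by that number the log2 fold change was 0.85 (unadjusted p = 0.015, adjusted p = 0.935). The labels do not say what a number shares, so this pairing is uncertain. Without WT1 it was 0.33, and without WT2 it was 1.24.

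The libraries with the most *Wars* were the 3 with the largest sums of epididymis and testis markers, KO3, KO2 and WT2, and WT1 was the lowest in both. WT1 and KO1, with the smallest marker sums, were the lowest libraries for *Wars*. They were also the lowest for *Aars*, *Hars*, *Lars*, *Qars*, *Rars*, *Sars*, *Vars*, *Aimp1* and *Cars2*, and not for the remaining genes. The part of those tissues in the level of *Wars* or of the other genes was not tested. *Wars* is also known as an interferon-gamma-induced gene. Of 12 tested genes of the interferon-gamma response, 4 had log2 fold changes above 0, with a median of −0.12. The sums of the interferon-gamma list were 451, 451 and 420 CPM in the wild type and 434, 389 and 408 CPM in the knockout. *Ido1* alone gave 119 CPM of the sum in WT2 and 94.6 CPM in KO3, and at most 13.1 CPM in any other library. The epididymis marker *Lcn5* was high in the same libraries, with 2001 CPM in WT2, 1586 CPM in KO3 and at most 83.6 CPM elsewhere. Other markers of that list, such as *Crisp1*, did not follow this order, and the part of epididymis in *Ido1* was not tested. The part of interferon-gamma in the *Wars* level was not tested.

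**Figure D3:**
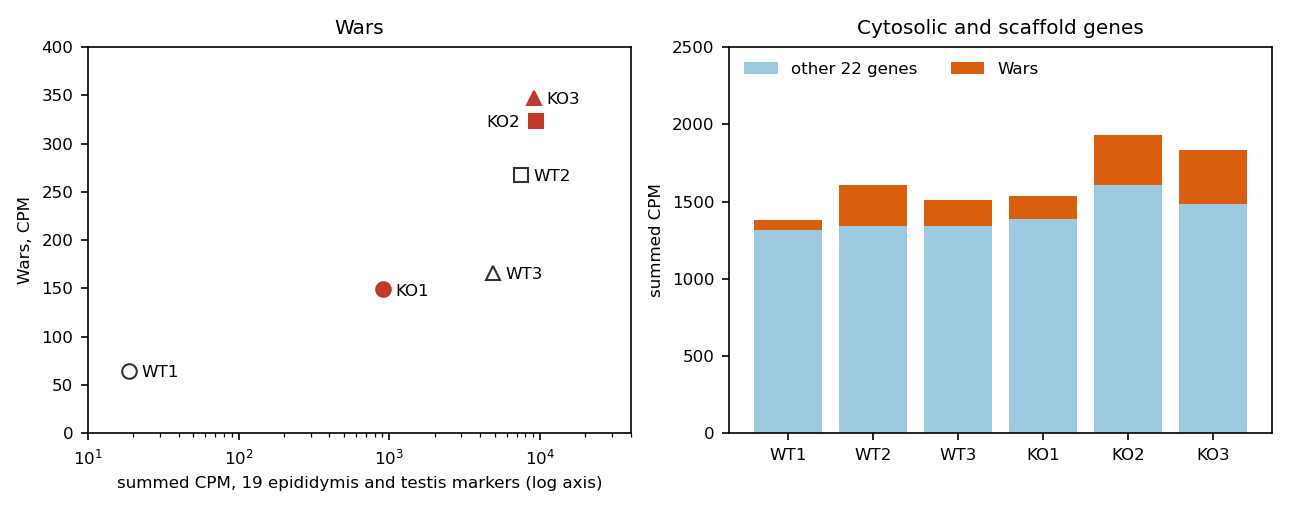
Left, *Wars* CPM against the summed CPM of 19 epididymis and testis markers (log axis) in each library; right, summed CPM of the 23 cytosolic and scaffold genes per library with *Wars* in orange. *Wars* runs from 64.9 CPM in WT1 to 348 CPM in KO3, and it makes up 4.69% of the sum in WT1 and 18.97% in KO3.

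The 3 scaffold genes differed among themselves. *Aimp1*, whose protein is also the precursor of a secreted cytokine, had 16.4, 24.4 and 24.6 CPM in the wild type and 14.9, 56.6 and 31.7 CPM in the knockout. KO1 was the lowest of the 6, KO2 and KO3 lay above the wild type, and the log2 fold change of 0.65 ± 0.47 (SE) was 0.10 without KO2. *Aimp2* had 17.4, 15.7 and 18.3 CPM against 14.5, 27.8 and 14.2 CPM, with KO2 alone above the wild type. It was at 0.13, and at −0.26 without KO2. *Eef1e1*, the third scaffold gene, was the lowest of the cytosolic and scaffold genes in log2 fold change, at −0.09 ± 0.28 (SE), with 14.9, 10.2 and 9.74 CPM against 12.3, 8.81 and 11.7 CPM.

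By membership of the multisynthetase complex, 10 of its 11 genes and 11 of the 12 cytosolic synthetases outside it were above 0, with medians of 0.13 and 0.22. The enzymes also fall into class I and class II by the fold of their catalytic core. All 9 of class I were above 0 (median 0.22) and 9 of 10 of class II were (median 0.16). *Eprs*, which charges both glutamate and proline, was placed in neither class here and was at 0.06. No test was made between these groups, and the median SE of a single gene was 0.19.

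Mitochondrial synthetases were above 0 in 12 of 16. *Rars2*, the arginine enzyme (ENSMUSG00000028292, plus strand of chr4:34562206-34607416, mm9), had 18.5, 19.1 and 18.4 CPM in the wild type and 23.6, 24.4 and 23.6 CPM in the knockout. Each group was tight and they did not overlap, with means of 18.6 ± 0.37 and 23.9 ± 0.49 CPM (SD, n = 3 each). *Hars2*, the histidine enzyme, was much alike, with 21.3, 21.3 and 20.0 CPM against 26.3, 26.3 and 24.8 CPM.

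The log2 fold changes were 0.36 ± 0.16 for *Rars2* and 0.31 ± 0.16 for *Hars2* (SE), with unadjusted p = 0.066 and unadjusted p = 0.104 by edgeR's quasi-likelihood test. Leaving out any library kept them between 0.34 and 0.37 and between 0.29 and 0.33. The SE of each includes a spread that edgeR shares across genes. *Hars* and *Hars2* are transcribed from opposite strands and share 195 bases of exon. Of the 39 genes, 12 share exon bases with a gene on the other strand. Among them are *Cars* (211 bases with *Gm15580*) and *Aimp2* (487 of 1654 bases with *Eif2ak1*). The libraries kept the strand, but the strand setting of the counting is not given in the sources used here.

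*Ears2*, which attaches glutamate in mitochondria, had 6.76, 12.5 and 10.3 CPM in the wild type and 12.5, 18.96 and 13.4 CPM in the knockout. KO1 lay just below WT2, and the log2 fold change was 0.60 ± 0.31 (SE, unadjusted p = 0.102, edgeR's quasi-likelihood test). In the edgeR fit blocked by replicate number, whose meaning is not given, the unadjusted p was 0.045 and the adjusted p 0.935. *Sars2*, the serine enzyme, had 2.17, 4.17 and 4.99 CPM against 4.61, 9.08 and 4.06 CPM. Its log2 fold change was the largest of the mitochondrial genes, 0.64 ± 0.50 (SE), and was 0.20 without KO2, the one library that stood apart. *Pars2*, the proline enzyme, had 4.86, 5.0 and 3.89 CPM against 6.68, 4.67 and 6.71 CPM, with KO2 inside the wild-type range (0.40 ± 0.33).

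*Iars2*, the isoleucine enzyme, varied most in KO1. It had 120.3, 126 and 123 CPM in the wild type and 210.0, 95.3 and 127 CPM in the knockout. Its log2 fold change was 0.23 ± 0.30 (SE) and was −0.15 without KO1. Of its 8885 exon bases, 2018 overlap exons of *Rab3gap2* on the other strand. *Fars2*, the phenylalanine enzyme, was even across libraries, with 31.1, 34.5 and 33.2 CPM against 32.0, 41.4 and 31.7 CPM and a log2 fold change of 0.09.

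The 4 mitochondrial genes below 0 were *Lars2*, *Mars2*, *Aars2* and *Tars2*, at −0.30, −0.20, −0.06 and −0.05. *Lars2*, the leucine enzyme, had 16.5, 19.2 and 31.2 CPM in the wild type and 14.4, 15.2 and 24.6 CPM in the knockout. Replicate 3 was high in both genotypes, so the groups overlapped, and without WT3 the value was 0.036. The others were *Wars2* at 0.17, *Nars2* at 0.14, *Yars2* at 0.09, *Cars2* at 0.02 and *Vars2* at 0.002, with SE of 0.21 to 0.34.

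The cytosolic and mitochondrial sets lay apart in level more than in fold change. The median level was 17.0 CPM per kilobase for the cytosolic and scaffold genes and 3.61 CPM per kilobase for the mitochondrial genes, as means of the 6 libraries. Of 16 pairs of enzymes for the same amino acid, with *Eprs* set against both *Ears2* and *Pars2*, the cytosolic member was the higher per kilobase in 14, by a median of 3.66-fold. *Wars* exceeded *Wars2* 31.4-fold. The exceptions were *Fars2*, at 15.99 against 7.04 for *Farsa*, and *Iars2*, at 15.0 against 9.41 for *Iars*. *Farsa* stood for the cytosolic phenylalanine enzyme in these pairs, and its other subunit, *Farsb*, was at 20.2 CPM per kilobase, above *Fars2*.

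After *Wars*, at 63.8 CPM per kilobase, the highest cytosolic levels were *Nars* at 40.4 and *Kars* at 34.3, and the lowest was *Yars* at 5.53. *Fars2*, *Iars2* and *Rars2* (7.67) led the mitochondrial genes, and *Pars2* at 1.71 was the lowest. The levels rest on merged exon lengths of the annotation, which can be longer than the transcripts this tissue uses.

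**Figure D4:**
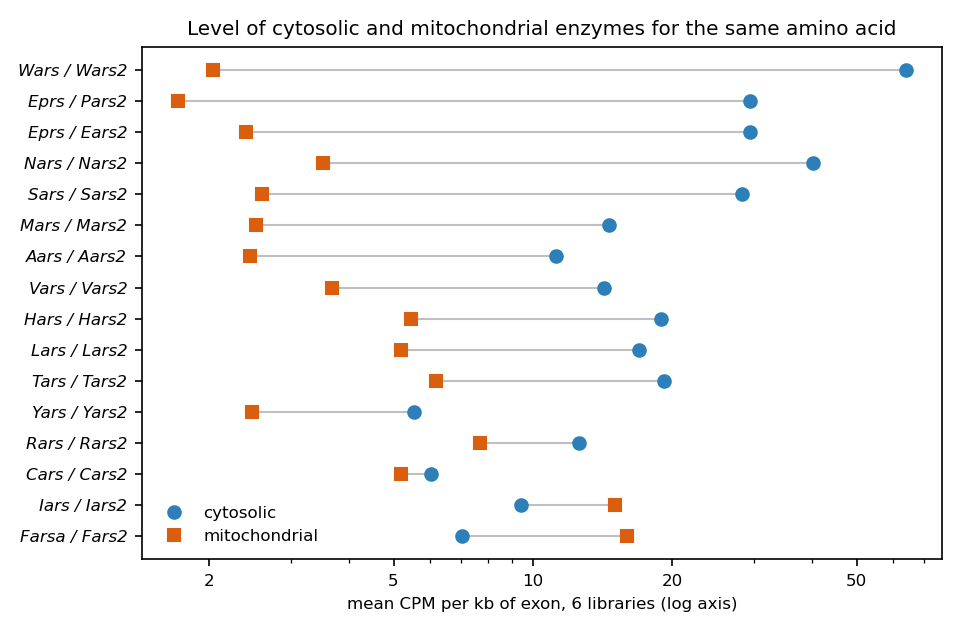
Mean level of the cytosolic (blue circles) and mitochondrial (orange squares) enzyme for the same amino acid, in CPM per kilobase of exon over the 6 libraries (log axis). The blue point is to the right in 14 of 16 pairs, and *Farsa* with *Fars2* and *Iars* with *Iars2* are the exceptions; *Farsb*, the other phenylalanine subunit, is not drawn.

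In fold change, the median was 0.17 for the cytosolic and scaffold genes and 0.12 for the mitochondrial genes, a difference of 0.06. In 9 of the 16 pairs the cytosolic enzyme had the larger log2 fold change. The difference was not tested and is smaller than the SE of a single gene. Without KO2 the medians were 0.10 and 0.12, and without WT1 they were 0.15 and 0.22, so their order turned with the library left out.

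Summed over the 23 cytosolic and scaffold genes, the levels were 1383, 1607 and 1508 CPM in the wild type and 1537, 1932 and 1832 CPM in the knockout. KO1 fell below WT2, and the ratio of the means was 1.18. With *Wars* left out, a choice made after seeing the data, the sums were 1318, 1339 and 1342 CPM against 1388, 1609 and 1484 CPM and did not overlap. They did overlap when scaled by library size alone, where KO1 was at 1255 CPM and WT1 at 1266 CPM.

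The mitochondrial sums were 328, 356 and 356 CPM in the wild type and 448, 340.2 and 369 CPM in the knockout, with KO1 high through *Iars2*. Without *Iars2*, a choice also made after seeing the data, they were 208, 230.2 and 233 CPM against 238, 245 and 242 CPM. The gap between WT3 and KO1 was narrow, and it closed with library size alone, where WT2 was at 242 CPM and KO1 at 215 CPM.

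Promoters were read to see which members carry an ATF4 element, since ATF4 is known to induce many synthetase genes when amino acids are short, or an element of NRF1, a factor of nuclear genes for mitochondrial proteins. RefSeq promoters (GRCm38.p6, 250 bases before to 50 after the start) were matched for 30 of the 39 genes, 16 cytosolic or scaffold and 14 mitochondrial. No promoter was matched for *Cars*, *Hars*, *Lars*, *Nars*, *Rars*, *Vars*, *Wars*, *Hars2* or *Pars2*, so these were not searched. The ATF4 core was searched as TGATGNAA and the NRF1 core as CGCATGCG, both strands each. The ATF4 core was in 5 of the 16 cytosolic and scaffold promoters (31.2%) and in 0 of the 14 mitochondrial ones, against 4.51% of 27025 genes. The windows below hold those matches, in capitals, 5′ to 3′ along the gene.
*Aars*, chr8:111033704-111033763: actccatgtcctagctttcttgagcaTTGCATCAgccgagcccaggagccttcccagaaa
*Gars*, chr6:55037960-55037989: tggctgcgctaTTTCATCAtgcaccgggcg
*Iars*, chr13:49682126-49682155: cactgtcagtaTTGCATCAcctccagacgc
*Tars*, chr15:11399655-11399684: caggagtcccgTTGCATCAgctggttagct
*Yars*, chr4:129189895-129189924: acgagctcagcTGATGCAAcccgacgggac

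*Tars* lies on the minus strand and the other 4 genes on the plus strand, and *Aars* has a further match after its start. All matches but that of *Yars* read the core on the strand opposite to the gene. The log2 fold changes of these 5 genes ran from 0.03 (*Iars*) to 0.31 (*Yars*), and none passed the test. The NRF1 core was in 0 of the 16 and in 2 of the 14 mitochondrial promoters (14.3%), *Vars2* and *Wars2*, against 2.07% of genes. They are shown because they are the only mitochondrial matches, and a match is a description of the letters alone.
*Vars2*, minus strand, chr17:35667595-35667624: gtccccgcccaCGCATGCGcgcgcacctcg
*Wars2*, plus strand, chr3:99141001-99141060: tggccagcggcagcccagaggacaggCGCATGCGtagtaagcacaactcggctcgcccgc

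The *Vars2* promoter holds a second match further upstream. *Vars2* and *Wars2* had log2 fold changes of 0.002 and 0.17.

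Precursor tRNA scores had a larger log2 ratio of knockout over wild type than the mRNA of the enzyme for 20 of 20 amino acids, and mature scores for 17, on scales that were set separately. The exceptions among mature scores were glycine (−0.03, with *Gars* at 0.26), lysine (−0.04, with *Kars* at 0.24) and histidine (0.08, with *Hars* at 0.17). The authors' scores of tRNA loci, whose scaling is not given in the sources used here, were summed per amino acid over 430 loci. Precursor scores were above 0 in log2 ratio for 20 of 20 amino acids, with a median of 1.83, and the libraries did not overlap for 14. Without KO3 the median was 1.19. Mature scores were above 0 for 18, with a median of 1.27, and the libraries did not overlap for 2, phenylalanine and tryptophan.

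The mature values rested heavily on single libraries and on how amino acids were weighted. Summed over all 430 loci, the mature scores were 4302, 4964 and 19751 in the wild type and 8788, 8443 and 20377 in the knockout, with WT3 close to KO3 and far above WT1 and WT2. The ratio of the means was 1.30, or 0.37 on the log2 scale, below the median of 1.27 in which each amino acid counts equally. That median was 0.76 without WT1, 2.50 without WT3 and 0.33 without KO3, and the log2 ratio of the sums was 0.02, 1.44 and −0.17 without the same libraries. It was 0.06 without WT2, 0.58 without KO1 and 0.59 without KO2.

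The order of amino acids differed between tRNAs and enzymes. Cysteine, whose enzyme *Cars* had the smallest p of the synthetases, had the lowest precursor ratio, 0.63, with scores of 126, 252 and 156 in the wild type and 219, 269 and 338 in the knockout. Glutamine had the highest, 3.47, with scores of 1.01, 6.85 and 21.2 against 57.7, 44.0 and 222, beside 0.22 for *Qars*. Tryptophan was high in both, with precursor scores of 14.2, 22.9 and 19.3 against 50.7, 137 and 141 (2.54) beside 0.72 for *Wars*.

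Across the 20 amino acids, the enzyme's log2 fold change had a Pearson correlation of 0.08 and a Spearman correlation of 0.03 with the precursor ratio, and of 0.17 and −0.10 with the mature ratio. These are descriptions only, since all points come from the same 6 libraries, *Eprs* stands for both glutamate and proline, and *Farsa* and *Farsb* were averaged.

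**Figure D5:**
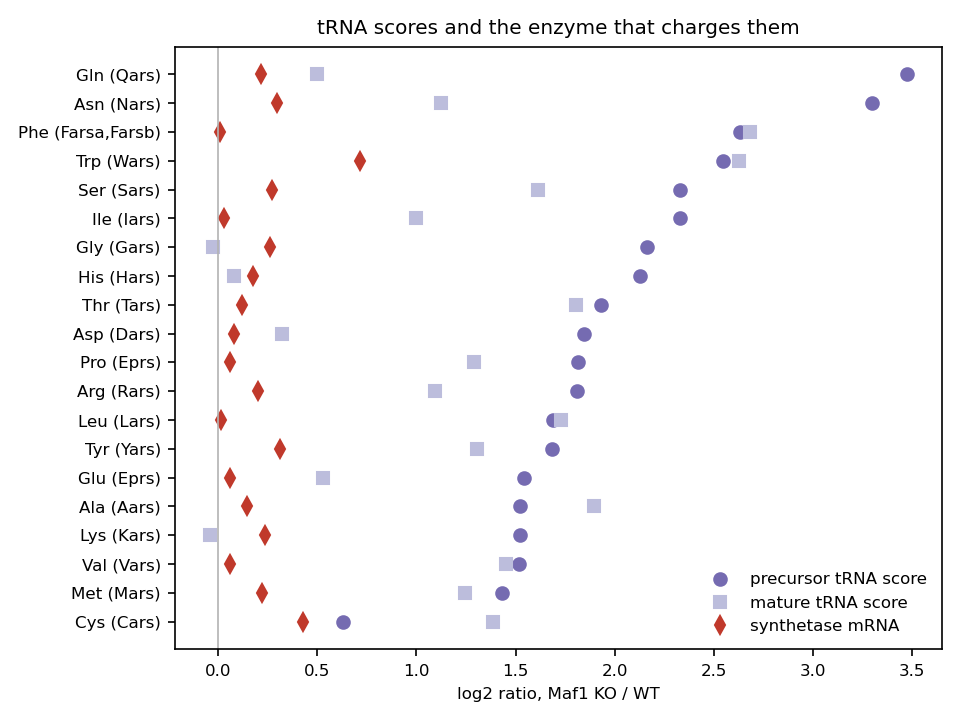
Log2 ratio of *Maf1*-/- over wild type for the summed precursor tRNA scores (dark circles), the mature tRNA scores (light squares) and the cytosolic synthetase mRNA (red diamonds), by amino acid. Precursor ratios run from 0.63 to 3.47, whereas the enzyme values lie between 0.01 and 0.72.

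Other genes of tRNA charging and translation gave no call either. Of 14 tested genes for amidotransferase, editing and related steps, 9 were above 0 (median 0.12). Of the 14, only *Mtfmt*, which formylates the initiator methionyl-tRNA of mitochondria, lay lower in every knockout library, where 3.37% of all genes did. It had 11.4, 10.7 and 11.3 CPM against 10.03, 8.15 and 7.67 CPM. Its log2 fold change was −0.37 ± 0.24 (SE, unadjusted p = 0.166, edgeR's quasi-likelihood test). *Prorsd1* and *Ptrh2* were at 0.49 and 0.36. Of 8 cytosolic elongation factors, 6 were above 0 (median 0.07). *Eef1g*, a subunit of the exchange factor that reloads the elongation factor bringing charged tRNA to the ribosome, was at 0.67 with KO2 at 129.8 CPM and the other libraries between 37.9 and 52.4 CPM, and at −0.04 without KO2. *Eef1b2*, of the same exchange factor, was at 0.49, and *Eefsec* at −0.16. Of 9 mitochondrial translation factors, 7 were above 0 (median 0.06), with *Gfm2*, *Mtif2* and *Mtif3* at 0.16, 0.20 and 0.17.

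Of 28 genes of the ATF4 and amino acid response, 18 were above 0, with a median of 0.14. *Nupr1*, a stress-induced chromatin protein, had 46.4, 36.5 and 40.5 CPM in the wild type and 65.8, 68.8 and 45.7 CPM in the knockout. KO3 lay just below WT1, and the log2 fold change was 0.55 ± 0.21 (SE; unadjusted p = 0.036, adjusted p = 1.00, edgeR's quasi-likelihood test). *Atf4* itself had 176, 116 and 119 CPM against 164, 213 and 159 CPM, at 0.38. *Chac1*, a glutathione-degrading enzyme induced by ATF4, was at −0.80, with WT1 at 42.5 CPM and the other libraries between 9.76 and 18.2 CPM. In the interferon-gamma list *Ciita*, the activator of class II antigen-presentation genes, was at −0.68 ± 0.28 (SE; unadjusted p = 0.044, adjusted p = 1.00), *Cxcl9* at −0.77 and *Gbp2* at −0.18.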

How the data were processed

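Total RNA of eWAT from 3 wild-type and 3 *Maf1*-/- mice was depleted of ribosomal RNA and sequenced as strand-keeping libraries. The submitters' processing notes name GSNAP for the alignment to mm9 and HTSeq for counting. The deposited table gives what is treated here as an expected count, whole for every gene, and its 2 closing lines, a total and a normalization factor, were dropped. The authors' score values for 433 tRNA loci (430 of them of the 20 amino acids) were deposited with precursor and mature parts, and their scaling is not given in the sources used here. Columns with the authors' normalized counts, fold changes and p-values were not used.

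In edgeR 4.0.16 (limma 3.58.1, R 4.3.3), genes were kept by filterByExpr, TMM factors were computed and genotype, the only term, was tested by quasi-likelihood. The SE of a log2 fold change was derived, as its absolute value divided by the square root of the quasi-likelihood F statistic. The Benjamini-Hochberg adjustment ran over 16101 genes, with a threshold of 0.05. DESeq2 1.42.0, edgeR's exact test, limma voom, other scalings, no filter, the replicate block and leaving out libraries were alternatives. Of these, only the quasi-likelihood test, with and without the replicate block, was run on simulated data, and its outcome is not reported here. Tables and plots used Python 3.11.15, pandas 2.3.3, numpy 2.4.6 and matplotlib 3.10.9. Exon lengths and positions are from GENCODE vM1 on mm9. Totals of 7207476 to 15971900 counts put a floor of 3 counts at 0.188 to 0.416 CPM, for counting error only.

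Same-numbered libraries deviated together (correlations 0.656, 0.355 and 0.336, each above the limit of 0.1). WT2 correlated more with KO3 (0.466), and WT3 with KO2 was above the limit too (0.286). The numbers met that rule, but it cannot tell their pairing from one of WT2 with KO3 and WT3 with KO2. The mice are separate animals, and the labels do not say what a number shares. The members and lists were chosen with earlier results of these data known. Values by library are given for *Maf1*, the 10 cytosolic or scaffold and 6 mitochondrial genes with the smallest p, genes whose genotypes do not overlap, those at the extremes of fold change or level and up to 3 genes of each related list; *Aimp2* was singled out after its values were seen.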

Additional observations from a re-analysis of the deposited data

How the results depend on the processing

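No alternative called any of the 39 genes. DESeq2 called 8 genes higher and 6 lower and edgeR's exact test 2 and 2, against 0 and 0 with the quasi-likelihood test, where 302 genes had an unadjusted p below 0.05. With the replicate number as a block, which changed no call, the medians were 0.16 for the cytosolic and scaffold genes and 0.13 for the mitochondrial genes. With 1 library left out they ran from 0.10 to 0.22 and from 0.11 to 0.22, without *Wars* or *Iars2* (added after seeing the data) they were 0.16 and 0.09, and the precursor tRNA median ran from 1.19 to 2.44. The mature median, tried in this way after seeing the data, ran from 0.33 to 2.50. Of the 39 genes, 23 kept their sign under all 15 settings, which did not include leaving out replicate 3 of both genotypes. The cause of the sign changes was not tested. Signs turned with RLE factors *Farsa* at 0.0092, with DESeq2 *Farsa* at 0.0094, with library size alone *Lars* at −0.0039, *Cars2* at −0.0046, *Vars2* at −0.048, with voom *Vars2* at −0.020, with no filter *Farsb* at −0.0082, *Lars* at −0.012, *Cars2* at −0.0050, *Vars2* at −0.023 and with the block *Vars2* at −0.032. Without replicate 1 of both genotypes the turned values were *Farsa* at 0.26, *Lars* at −0.00042, *Eef1e1* at 0.041, *Cars2* at −0.030, *Iars2* at −0.16, *Vars2* at −0.34, *Mtif2* at −0.033, *Chac1* at 0.088 and *Cxcl9* at 0.060. Without replicate 2 of both genotypes the turned values were *Dars* at −0.037, *Farsb* at −0.17, *Aimp2* at −0.29, *Aars2* at 0.37, *Tars2* at 0.093, *Yars2* at −0.15 and *Ptrh2* at −0.017. With 1 library left out, the ranges that crossed 0 were −0.023 to 0.16 for *Dars*, −0.094 to 0.14 for *Farsa*, −0.13 to 0.35 for *Farsb*, −0.14 to 0.18 for *Iars*, −0.11 to 0.12 for *Lars*, −0.13 to 0.25 for *Vars*, −0.26 to 0.29 for *Aimp2*, −0.18 to 0.13 for *Eef1e1*, −0.28 to 0.20 for *Aars2*, −0.098 to 0.10 for *Cars2*, −0.046 to 0.15 for *Fars2*, −0.15 to 0.45 for *Iars2*, −0.60 to 0.036 for *Lars2*, −0.15 to 0.018 for *Tars2*, −0.26 to 0.15 for *Vars2*, −0.048 to 0.37 for *Yars2*, −0.073 to 0.73 for *Prorsd1*, −0.040 to 0.97 for *Eef1g* and −1.12 to 0.11 for *Cxcl9*. The lowest count was 25 among the mitochondrial genes and 66 among the cytosolic and scaffold genes. The part of depth in the spread was not tested.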
